A study of Mus musculus with 2 samples.

Results

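The cells described here are the 918 dTAG13-treated mouse embryoid body cells that carried transcripts of the stress-induced transcription factor gene Atf3, of the cell adhesion gene Nectin4 or of both, and few transcripts of simple-epithelial keratins. They were chosen by their own raw counts of unique molecular identifiers (UMIs, each standing for 1 captured transcript). A cell had to hold at least 2 UMIs summed over Atf3 and Nectin4 and fewer than 3 UMIs summed over Krt8, Krt18 and Krt19. They are called Atf3/Nectin4 cells below and make up 7.92% (95% exact binomial interval 7.44 to 8.43) of the 11588 dTAG13 cells kept for having 500 or more genes with mitochondrial transcripts no more than 10% of UMIs. The whole series holds 29466 such cells. The comparison cells are the 8382 kept dTAG13 cells, 72.3% of the library, with 0 UMIs of Atf3 and Nectin4. Keratins were not limited in the comparison cells, of which 8144 had fewer than 3 keratin UMIs. The levels of Atf3, Nectin4 and the 3 keratins were selected on and are given only as a description.

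The cells come from J1, a male mouse embryonic stem cell line, grown as embryoid bodies, the aggregates in which such cells start to differentiate. The dTAG13 group had received for 2 days a degrader molecule that marks proteins fused to a modified FKBP12 tag for destruction, and the DMSO group its solvent for the same time. The title of the series names Tex10, and the labels do not say which protein carried the tag. Each group is 1 library of pooled cells dissociated with trypsin, so no difference below has a replicate check, none was tested. Every interval is a 95% interval for counting error alone.

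Atf3 encodes a basic leucine zipper protein of the ATF/CREB family. It is kept low in resting cells and is switched on by DNA damage, amino acid shortage and other stresses, in part through p53 and through Atf4. Nectin4 encodes an immunoglobulin-like adhesion molecule of epithelia that binds Nectin1 on neighbouring cells and is tied to actin by afadin. p53 is the transcription factor that answers DNA damage and faults in ribosome assembly by turning on genes of growth arrest and cell death.

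The promoters of the genes behind the rule are printed because they are the features by which the cells were found. Both lie on chromosome 1. In RefSeq (GRCm38.p6, the patched form of mm10), Nectin4 (ENSMUSG00000006411) spans chr1:171370173-171388287, and Atf3 (ENSMUSG00000026628) spans chr1:191170296-191183333. The windows run from 250 bases before to 50 bases after the annotated start, chr1:191183284-191183583 on the minus strand for Atf3 and chr1:171369923-171370222 on the plus strand for Nectin4. Capitals mark the motif matches.
Atf3 promoter: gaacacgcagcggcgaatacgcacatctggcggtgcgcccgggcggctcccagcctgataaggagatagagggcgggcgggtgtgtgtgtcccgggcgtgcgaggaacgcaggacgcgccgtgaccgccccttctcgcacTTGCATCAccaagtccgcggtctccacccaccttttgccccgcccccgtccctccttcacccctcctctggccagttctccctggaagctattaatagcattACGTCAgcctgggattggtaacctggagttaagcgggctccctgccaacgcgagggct
Nectin4 promoter: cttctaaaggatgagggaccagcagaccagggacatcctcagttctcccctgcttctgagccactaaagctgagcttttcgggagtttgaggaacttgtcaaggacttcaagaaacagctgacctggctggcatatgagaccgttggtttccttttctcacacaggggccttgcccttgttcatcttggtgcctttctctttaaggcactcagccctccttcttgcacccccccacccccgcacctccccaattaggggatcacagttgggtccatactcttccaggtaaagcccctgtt
The motifs searched on both strands were the short cyclic AMP response element ACGTCA, the full element TGACGTCA (which contains the short one), the AP-1 site TGANTCA, the C/EBP-ATF composite site TGATGNAA and the p53 decamer, given by name. The Atf3 window held ACGTCA at offset -8 from the start and TGATGNAA, read on the opposite strand, at offset -110. It held none of the other 3 motifs, and the Nectin4 window held none of the 5. Of 32851 RefSeq promoter windows of this length, 7.51% hold ACGTCA, 3.97% TGATGNAA, 1.79% TGACGTCA, 7.81% TGANTCA and 8.36% the p53 decamer. A match is a description of letters in this window.

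Within the rule the cells were mixed, and the label "Atf3 and Nectin4" covers cells with either gene. Both genes were detected in 424 of the 918 cells, Nectin4 alone in 338 and Atf3 alone in 156. The cells held 1114 Atf3 UMIs and 1450 Nectin4 UMIs in all, with at most 11 and 8 in a cell. Most were near the threshold, as 541 had exactly 2 UMIs of the pair, 206 had 3 and 171 had 4 or more. Just outside the threshold lay 1918 low-keratin cells with 1 UMI. On the keratin side, 661 cells had 0 keratin UMIs, 186 had 1 and 71 had 2, and 50 further cells with 3 keratin UMIs lay just outside.

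**Figure D1:**
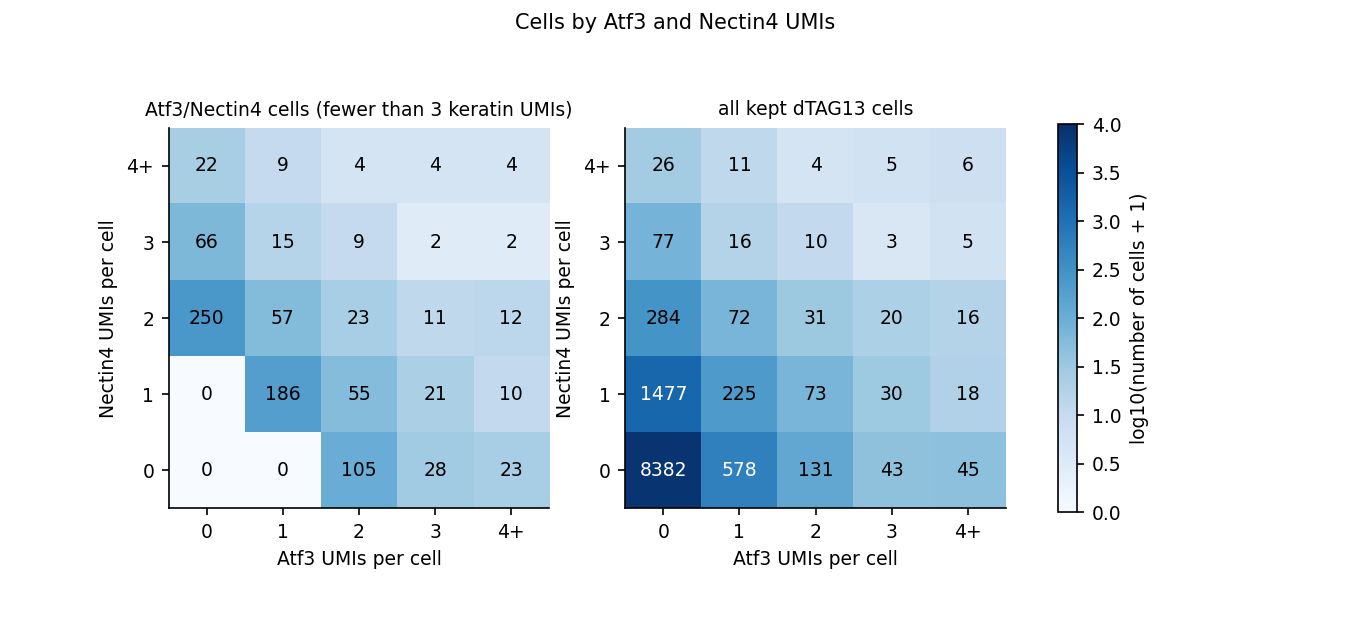
Numbers of dTAG13 cells by Atf3 UMIs (horizontal axis) and Nectin4 UMIs (vertical axis) per cell, for the Atf3/Nectin4 cells (left) and all kept cells (right), with colour on a log10 scale. The largest square of the left grid is 250 cells with 2 Nectin4 UMIs and no Atf3 UMI, and 8382 cells hold no UMI of either gene.

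Nectin4 was found more often in cells with Atf3 than in cells without it. Among the low-keratin cells, a Nectin4 UMI was present in 38.7% (35.8 to 41.6) of the 1097 cells with Atf3 and in 17.6% (16.8 to 18.4) of the 9883 cells without it. After each cell was thinned to 4000 UMIs the shares were 21.6% (18.4 to 25.01) with Atf3 and 11.1% (10.4 to 11.7) without. With the cells put into 4 depth classes of equal size, the shares in the shallowest class were 29.2% with Atf3 and 13.6% without, and in the deepest class 45.5% with Atf3 and 24.3% without. No cell type known to lack Nectin4 was defined in these data, so no level set by free RNA can be given. In the DMSO library 180 Nectin4 UMIs and 177 Atf3 UMIs were spread over 17878 cells.

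The share of cells with 2 UMIs of the pair was higher among keratin-bearing cells. Without the keratin limit, at least 2 UMIs of the pair were found in 38.3% (34.4 to 42.3) of the 608 cells with 3 or more keratin UMIs, in 15.0% (13.4 to 16.8) of the 1709 cells with 1 or 2, and in 7.13% (6.61 to 7.67) of the 9271 cells with none. After thinning these shares were 14.7%, 6.19% and 3.21%. Neurod1, a gene of the neurogenic basic helix-loop-helix class, gave smaller differences among the low-keratin cells. The rule was met by 13.7% (11.5 to 16.2) of 838 cells with 2 or more Neurod1 UMIs, 11.6% (10.2 to 13.2) of 1812 cells with 1 and 7.11% (6.56 to 7.68) of 8330 cells with none, and by 4.74%, 4.60% and 3.37% after thinning. After thinning, the intervals of the Neurod1 classes overlapped (3.38 to 6.45, 3.66 to 5.70 and 2.97 to 3.80). Of 41 cells with at least 3 UMIs of the Zscan4 family, the marker of a 2-cell-like state, 1 met the rule (2.44%, 0.0617 to 12.9).

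The rule counts raw UMIs, and the Atf3/Nectin4 cells were deeper than the comparison cells. Their median was 8048 UMIs and 2434.5 genes, against 6775.5 UMIs and 2191 genes in the comparison cells, with mitochondrial shares of 1.83% and 1.99%. The nuclear RNA Malat1 was at 5485 CPM (the usual counts-per-million scale: a gene's UMIs over all UMIs of the cells of a class) in the Atf3/Nectin4 cells and 4325 CPM in the comparison cells, a ratio of 1.27 (1.26 to 1.28) that was also 1.27 after thinning. With the comparison cells weighted to the depths of the Atf3/Nectin4 cells, 311 genes were higher by 1.5-fold or more and 136 lower, against 268 and 134 unweighted. The part of RNA quality in the results was not tested. The kept libraries had 91808969 UMIs with dTAG13 and 117189816 with DMSO, at medians of 7072.5 and 6014 UMIs per cell. The 2 libraries shared 64 barcodes, 9 of which belong to Atf3/Nectin4 cells. Tex10 itself was at 60.4 CPM in the Atf3/Nectin4 cells, 66.8 CPM in the comparison cells and 81.3 CPM in DMSO cells, and the treatment acts on protein, so this checks no label.

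Summed over cells, the Atf3/Nectin4 cells had higher levels of Npnt, Cryab, Jag2, Sct and Dffb and lower levels of Eras, Tcf15, Zfp57 and Zfp42 than the comparison cells. Of 6933 genes that reached 10 CPM in 1 or both classes, 268 (3.87%) were higher by 1.5-fold or more in the Atf3/Nectin4 cells and 134 (1.93%) lower by as much. The median ratio over all 6933 genes was -0.02 on the log2 scale. These percentages are the background for every list below. A gene that reached 10 CPM in 1 class alone had to differ. Among the genes higher in the Atf3/Nectin4 cells, this holds for Npnt, Jag2, Fas, Fosl1, Nectin1, Cdh3, Krt7 and Pkp3, among others. Among the genes lower there, it holds for Eras, Tcl1, Sesn1, Egr1 and Xbp1, among others.

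Among genes of at least 20 CPM in the higher class, the highest ratio was that of Npnt (ENSMUSG00000040998), which encodes nephronectin, a matrix ligand of integrins. It was at 20.2 CPM (171 UMIs, 17.3 to 23.5) in the Atf3/Nectin4 cells and 6.78 CPM (6.15 to 7.46) in the comparison cells, a ratio of 2.98 (2.48 to 3.57), beside 2.12 CPM in DMSO cells. The small heat shock genes Cryab and Hspb2, which are neighbours in the genome, had ratios of 2.61 (2.34 to 2.90) and 2.29 (1.93 to 2.71). Cryab was at 54.8 CPM in the Atf3/Nectin4 cells, 21.0 CPM in the comparison cells and 4.80 CPM in DMSO cells. Jag2, a ligand of Notch receptors, was at 20.9 CPM in the Atf3/Nectin4 cells and 8.11 CPM in the comparison cells.

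Hormone and vesicle genes were also among the 20 highest ratios, while the hormone precursor gene Trh was among the 20 lowest. These genes were not chosen as a group. Sct, which encodes the hormone secretin, was at 201 CPM (191 to 210) in the Atf3/Nectin4 cells and 81.7 CPM in the comparison cells, beside 12.0 CPM in DMSO cells. Pam, whose enzyme amidates peptide hormones, and Sytl1, of the synaptotagmin-like family of vesicle transport, had ratios of 2.06 and 2.31. Neurod1 was at 59.6 CPM in the Atf3/Nectin4 cells and 41.2 CPM in the comparison cells, a ratio of 1.45 (1.31 to 1.59). The neurogenic factor genes Neurod4, Neurog1, Neurog2, Neurog3 and Insm1 and the Notch ligand gene Dll1 were under 10 CPM in both classes.

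A DNase gene and a membrane rupture gene were among the 20 highest ratios as well. Dffb, the nuclease that cuts DNA in apoptosis, was at 35.9 CPM in the Atf3/Nectin4 cells and 14.5 CPM in the comparison cells, a ratio of 2.48 (2.17 to 2.83). Ninj1, whose protein ruptures the membrane of dying cells, had a ratio of 2.15 (1.89 to 2.44). Man2b1, a lysosomal mannosidase, was, with Sct, among the most abundant of the 20, at 194 CPM in the Atf3/Nectin4 cells and 91.3 CPM in the comparison cells. Further genes of the 20 were Shisa4, Ttc28, the nucleotide hydrolase Nudt18, the ubiquitin ligase family member Trim47, the DNA-binding factor Arid3a, Klhl26, Tbc1d8 and Cebpb, with ratios between 2.05 for Tbc1d8 and 2.51 for Shisa4.

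**Figure D2:**
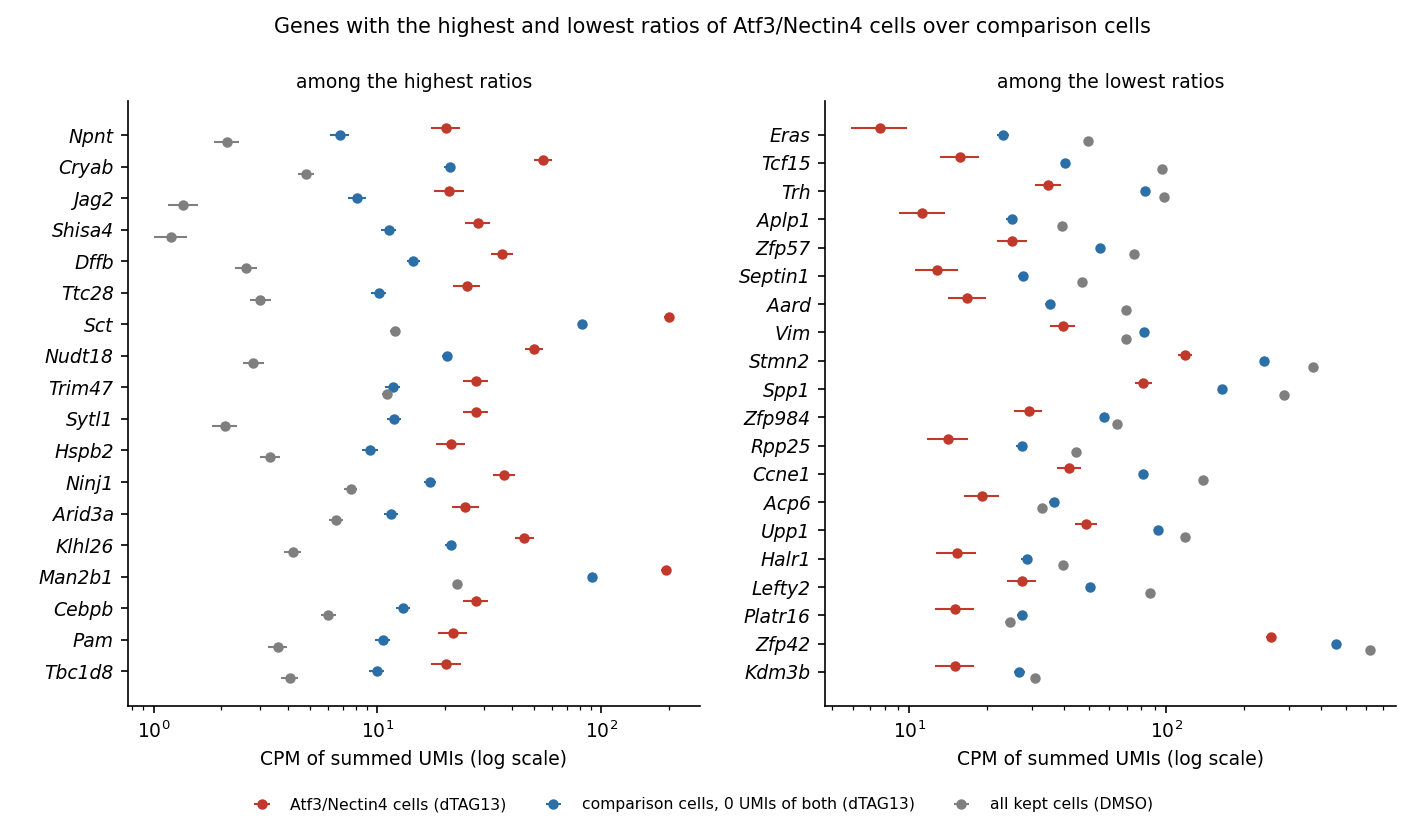
CPM of summed UMIs (log axis) for named genes among the highest (left) and the lowest (right) ratios, in Atf3/Nectin4 cells, comparison cells and all kept DMSO cells, with 95% Poisson intervals. Npnt is at 20.2, 6.78 and 2.12 CPM in these 3 classes, and Zfp42 at 256, 458 and 619 CPM.

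The 20 lowest ratios included Eras, Tcf15, Zfp57, Zfp42 and Lefty2, genes with known roles in stem cells of the early embryo. Eras, a Ras family gene of embryonic stem cells, was at 7.68 CPM (65 UMIs, 5.93 to 9.79) in the Atf3/Nectin4 cells, 23.2 CPM in the comparison cells and 49.5 CPM in DMSO cells, a ratio of 0.33 (0.25 to 0.43) to the comparison cells. Tcf15, a transcription factor of cells that leave the naive state, was at 15.7 CPM in the Atf3/Nectin4 cells, 40.4 CPM in the comparison cells and 96.5 CPM in DMSO cells. Zfp57, which protects imprinted methylation, had a ratio of 0.46 (0.39 to 0.52), and Lefty2, an inhibitor of Nodal, a ratio of 0.54 (0.47 to 0.62). The hormone precursor gene Trh was at 34.6 CPM in the Atf3/Nectin4 cells and 82.6 CPM in the comparison cells. Stmn2, a microtubule regulator, and Spp1, which encodes osteopontin, were each at ratios of 0.49. The intermediate filament gene Vim was at 39.5 CPM in the Atf3/Nectin4 cells, 82.1 CPM in the comparison cells and 69.7 CPM in DMSO cells. Zfp984 belongs to a family of near-identical zinc finger genes, and its ratio of 0.51 is uncertain as the value of 1 gene.

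The median ratio of p53 targets was above that of all genes, and few of them passed 1.5-fold. Of 39 listed targets, 35 were measured (10 CPM or more in 1 or both classes), 29 had a ratio above 1, 3 were higher by 1.5-fold or more and 0 lower by as much, with a median log2 ratio of 0.27 beside -0.02 over all genes. The same list stood at a median log2 ratio of 1.47 for Atf3/Nectin4 cells over DMSO cells and of 1.17 for comparison cells over DMSO cells, where the median over all genes was 0.07 and 0.10. These comparisons share cells, so the values are set side by side.

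Among the feedback genes, Mdm2, whose product targets p53 for degradation, had 483 CPM (468 to 498) in the Atf3/Nectin4 cells, 329 CPM in the comparison cells and 45.3 CPM in DMSO cells, a ratio of 1.47 (1.42 to 1.52) to the comparison cells. Phlda3, an inhibitor of Akt, had a ratio of 1.35 (1.29 to 1.41). The mRNA of p53 itself, Trp53, was at 441 CPM in the Atf3/Nectin4 cells and 464 CPM in the comparison cells, beside 460 CPM in DMSO cells. Of the 8 genes of this list, 7 had a ratio above 1 and 0 passed 1.5-fold.

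Of 11 growth arrest targets, 8 had a ratio above 1 and 0 passed 1.5-fold in either direction. The antiproliferative gene Btg2 was at 161 CPM in the Atf3/Nectin4 cells and 108 CPM in the comparison cells, a ratio of 1.49 (1.40 to 1.58). The stress kinase gene Plk2 was at 178 CPM in the Atf3/Nectin4 cells and 130 CPM in the comparison cells. The sestrin gene Sesn1 had the lowest ratio of the list, 0.70 (0.53 to 0.90), at 7.80 CPM in the Atf3/Nectin4 cells and 11.2 CPM in the comparison cells. Cdkn1a, the cell cycle inhibitor p21, which the naming rule did not select, was at 275 CPM in the Atf3/Nectin4 cells and 215 CPM in the comparison cells.

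All 12 measured cell death targets had ratios above 1, with a median log2 ratio of 0.48, and 3 of them were at least 1.5-fold higher. Fas, a death receptor gene, was at 13.0 CPM (110 UMIs) in the Atf3/Nectin4 cells and 3.93 CPM in the comparison cells, a ratio of 3.31 (2.62 to 4.16), beside 0.21 CPM in DMSO cells. Trp73, a p53 relative, had a ratio of 1.85 (1.44 to 2.35). Perp, a membrane protein of desmosomes and apoptosis, was at 293 CPM in the Atf3/Nectin4 cells, 166 CPM in the comparison cells and 29.1 CPM in DMSO cells, a ratio of 1.77 (1.69 to 1.85). Apaf1, the scaffold of the apoptosome, had a ratio of 1.48 (1.31 to 1.66). Fas and Trp73 were near the minimum level, and over genes of at least 20 CPM the median of the list was 0.18. The summed level of the list was 1432 CPM in the Atf3/Nectin4 cells and 1232 CPM in the comparison cells, beside 1243 CPM and 1003 CPM in the same order for the growth arrest list. Of the 16 apoptosis genes outside the p53 lists, 12 were measured and 0 passed 1.5-fold, and the antiapoptotic gene Bcl2l1 had the largest change, a ratio of 1.42 (1.18 to 1.71). The 4 measured p53-linked repair genes had a median log2 ratio of 0.10, and Pcna, also the replication clamp, a ratio of 0.69 (0.64 to 0.75).

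After thinning to 4000 UMIs, a median Atf3/Nectin4 cell held 26 UMIs of the p53 target lists (quartiles 23 and 31), a comparison cell 22 (18 and 27) and a DMSO cell 13 (10 and 16). The quartile ranges of the Atf3/Nectin4 cells and the comparison cells overlapped.

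Immediate-early genes and the AP-1 and ATF family, to which Atf3 belongs, had list medians above that of all genes. Of 24 immediate-early genes, 14 were measured, 4 of them higher by 1.5-fold or more and 1 lower by as much, with a median log2 ratio of 0.37. Fosl1, an AP-1 subunit, was at 14.5 CPM (123 UMIs) in the Atf3/Nectin4 cells, 4.64 CPM in the comparison cells and 0.32 CPM in DMSO cells, a ratio of 3.13 (2.51 to 3.88). Jun, a leucine zipper partner of Atf3, was at 110 CPM in the Atf3/Nectin4 cells, 61.7 CPM in the comparison cells and 15.2 CPM in DMSO cells, a ratio of 1.78 (1.65 to 1.91). Ccn1, a matricellular protein gene, had a ratio of 1.85 (1.61 to 2.12). Egr1, the zinc finger factor downstream of ERK, was the gene that was lower, at 7.45 CPM in the Atf3/Nectin4 cells and 13.0 CPM in the comparison cells. Klf6, a zinc finger factor outside the naming rule, was the remaining gene past 1.5-fold, with a ratio of 1.72. Fos, Fosb, Egr2, Nr4a1 and Myc were among the 10 genes under 10 CPM in both classes.

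In the AP-1 and ATF list, 4 of 14 measured genes were higher by 1.5-fold or more and 0 lower by as much, with a median log2 ratio of 0.31. Beside Fosl1 and Jun these were Cebpb and Ddit3, bZIP factors that can pair with ATF proteins. Cebpb was at 27.5 CPM in the Atf3/Nectin4 cells and 13.0 CPM in the comparison cells, a ratio of 2.12 (1.82 to 2.45). Ddit3, which encodes the stress factor CHOP and whose count sums 2 identifiers, was at 28.5 CPM in the Atf3/Nectin4 cells, 15.3 CPM in the comparison cells and 3.73 CPM in DMSO cells, a ratio of 1.86 (1.61 to 2.15).

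The integrated stress response, which acts through translation of Atf4, had a list median close to that of all genes. Of 24 measured genes, 3 were higher by 1.5-fold or more, 0 lower by as much and 14 had a ratio above 1, with a median log2 ratio of 0.05. The 3 were Cebpb, Ddit3 and Ddit4, an inhibitor of mTORC1 signalling that is also a p53 target, at 117 CPM in the Atf3/Nectin4 cells, 60.4 CPM in the comparison cells and 6.29 CPM in DMSO cells (ratio 1.93, 1.80 to 2.08). Cth, a cysteine synthesis enzyme, was at 22.0 CPM in the Atf3/Nectin4 cells and 32.6 CPM in the comparison cells. Atf4 and the asparagine synthetase gene Asns, which the naming rule did not select, had ratios of 1.21 and 0.71. Of 8 measured mTORC1 inhibitor genes, Ddit4 and its relative Ddit4l passed 1.5-fold, with a list median of 0.17 on the log2 scale. Ddit4l was at 160 CPM in the Atf3/Nectin4 cells and 104 CPM in the comparison cells.

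The lists of protein folding genes had medians below that of all genes, with single genes above 1. Of 11 measured genes of the unfolded protein response, 1 was at least 1.5-fold lower, Xbp1, a transcription factor of this response, at 7.21 CPM in the Atf3/Nectin4 cells with a ratio of 0.66 (0.50 to 0.85) to the comparison cells, and the median log2 ratio was -0.14. Of 10 measured heat shock genes, 0 passed 1.5-fold in either direction, with a median log2 ratio of -0.18. The mitochondrial chaperonin gene Hspd1 was at 1060 CPM in the Atf3/Nectin4 cells and 1447 CPM in the comparison cells, and the co-chaperone gene Dnajb1 had a ratio of 1.34 (1.22 to 1.46). The small heat shock genes Cryab and Hspb2 of the highest ratios are not in this list. Of 15 measured oxidative stress genes, Gpx3, a secreted glutathione peroxidase, was the 1 past 1.5-fold, at 69.0 CPM in the Atf3/Nectin4 cells, 36.2 CPM in the comparison cells and 4.43 CPM in DMSO cells. The haem oxygenase gene Hmox1 had a ratio of 1.48 (1.39 to 1.58).

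The list of nectins and cadherins had a median near that of all genes. Of 10 measured nectin and cadherin genes, 2 were higher by 1.5-fold or more and 0 lower by as much, with a median log2 ratio of 0.08. Nectin1, the binding partner of Nectin4, was at 12.5 CPM (106 UMIs) in the Atf3/Nectin4 cells and 6.42 CPM in the comparison cells, a ratio of 1.95 (1.56 to 2.42). Cdh3, which encodes P-cadherin, had a ratio of 1.66 (1.33 to 2.05), which was 1.23 after thinning. Cdh1, which encodes E-cadherin, was at 137 CPM in the Atf3/Nectin4 cells and 119 CPM in the comparison cells. Of 18 measured genes of epithelial junctions, 4 were higher by 1.5-fold or more and 0 lower by as much, with a median log2 ratio of 0.18. They were Krt7, a keratin the rule did not use, at 13.2 CPM in the Atf3/Nectin4 cells and 6.66 CPM in the comparison cells, the desmosome genes Pkp3 (ratio 1.90, 1.56 to 2.30) and Dsp (1.57, 1.43 to 1.72), and the tight junction gene Cldn4 (1.69, 1.55 to 1.85). Epcam, the general epithelial adhesion gene, which the naming rule did not select, was at 293 CPM in the Atf3/Nectin4 cells and 312 CPM in the comparison cells.

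**Figure D3:**
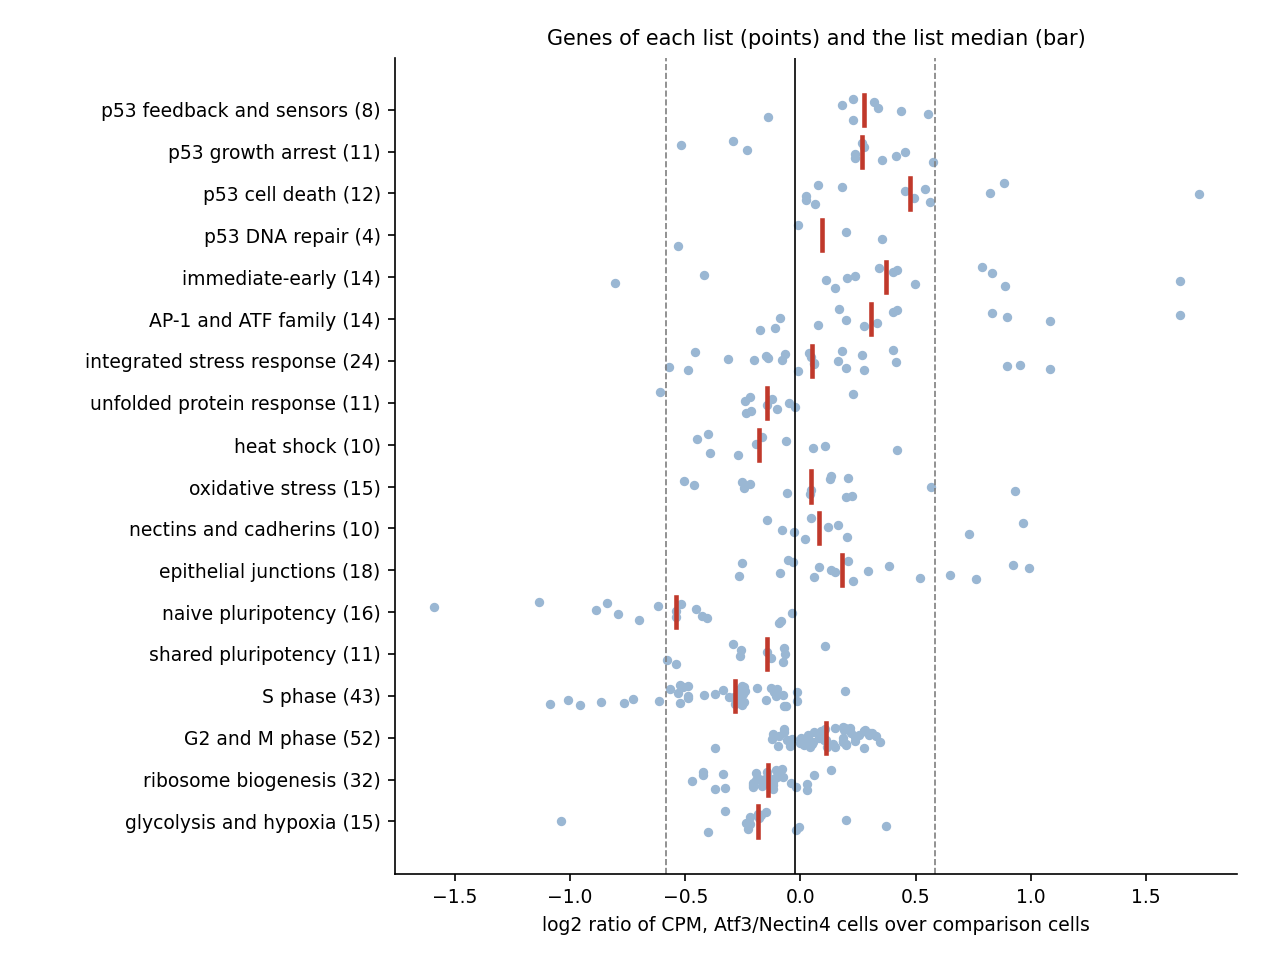
log2 ratios of Atf3/Nectin4 cells over comparison cells for the measured genes of 18 lists (points, number in brackets), with list medians (bars), the median over all genes (solid line) and the 1.5-fold limits (dashed). The p53 cell death median is at 0.48 and the naive pluripotency median at -0.54.

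Genes of the naive state were lower in the Atf3/Nectin4 cells, and shared pluripotency genes less far below the comparison cells. Of 16 measured naive genes, 7 were lower by 1.5-fold or more, 0 higher by as much and 0 had a ratio above 1, with a median log2 ratio of -0.54. Zfp42, a zinc finger gene known as Rex1, was at 256 CPM (245 to 267) in the Atf3/Nectin4 cells, 458 CPM in the comparison cells and 619 CPM in DMSO cells, a ratio of 0.56 (0.53 to 0.58). Tcl1, an Akt coactivator, was at 5.08 CPM (43 UMIs) in the Atf3/Nectin4 cells, 15.3 CPM in the comparison cells and 45.4 CPM in DMSO cells. The nuclear receptor gene Nr0b1 had a ratio of 0.54 (0.42 to 0.68). Nanog was at 54.7 CPM in the Atf3/Nectin4 cells and 79.6 CPM in the comparison cells, a ratio of 0.69 (0.62 to 0.76). Dppa5a, at 6356 CPM in the Atf3/Nectin4 cells and 6731 CPM in the comparison cells, gives most UMIs of this list and had a ratio of 0.94.

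Of 11 measured shared pluripotency genes, 0 passed 1.5-fold in either direction and the median log2 ratio was -0.15. Pou5f1 was at 449 CPM in the Atf3/Nectin4 cells, 538 CPM in the comparison cells and 612 CPM in DMSO cells. Sox2 was at 310 CPM in the Atf3/Nectin4 cells and 343 CPM in the comparison cells. L1td1, an RNA-binding protein gene of stem cells, and Dppa2 had the lowest ratios, 0.67 (0.64 to 0.70) and 0.69 (0.65 to 0.73).

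Marker lists of later lineages differed in direction between the Atf3/Nectin4 cells and the comparison cells. The 5 definitive endoderm markers summed to 35.5 CPM (31.6 to 39.7) in the Atf3/Nectin4 cells and 83.1 CPM (80.8 to 85.3) in the comparison cells. Nearly all of this was Trh, described above, and Foxa2 and Cer1 were at 0 in the Atf3/Nectin4 cells. No primitive streak or nascent mesoderm gene of 7 each reached 10 CPM, and their summed levels were 9.57 CPM and 8.98 CPM in the Atf3/Nectin4 cells and 8.79 CPM and 8.46 CPM in the comparison cells. Mixl1, Fgf8, Kdr and Msgn1 were at 0 in the Atf3/Nectin4 cells. The 14 trophoblast markers, 3 of which the rule limited, summed to 228 CPM (217 to 238) in the Atf3/Nectin4 cells and 189 CPM (185 to 192) in the comparison cells. Most of this was Tfap2c, a factor shared with germ cells, at 118 CPM in the Atf3/Nectin4 cells and 87.5 CPM in the comparison cells, and Elf5 was at 0 in the Atf3/Nectin4 cells. The 11 extraembryonic endoderm markers summed to 292 CPM in the Atf3/Nectin4 cells and 259 CPM in the comparison cells, most of it the matrix gene Sparc, with Sox7 at 0 in the Atf3/Nectin4 cells. The 9 fibroblast markers summed to 111 CPM (104 to 118) in the Atf3/Nectin4 cells and 67.5 CPM (65.5 to 69.6) in the comparison cells. Nearly all of this was the smooth muscle gene Tagln, at 110 CPM in the Atf3/Nectin4 cells and 64.9 CPM in the comparison cells, while Col1a2, Col3a1, Postn, Lum and Dcn were at 0 in the Atf3/Nectin4 cells. The 7 neural ectoderm markers summed to 62.3 CPM in the Atf3/Nectin4 cells and 58.5 CPM in the comparison cells, and the 10 markers of 2-cell-like cells to 22.7 CPM and 28.1 CPM in the same order. The 2-cell-like markers were divided. The 1 measured gene was higher, at a log2 ratio of 0.62 (0.38 to 0.85), and 5 others were at 0 in the Atf3/Nectin4 cells. The germ cell list, which also holds Tfap2c, summed to 167 CPM in the Atf3/Nectin4 cells and 147 CPM in the comparison cells. Of its 4 measured genes, 1 had a ratio above 1, and the median log2 ratio was -0.20. The part of these marker lists in the results was not tested.

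The replication genes were lower in the Atf3/Nectin4 cells, and the mitotic genes were close to the comparison cells. Of 43 measured S phase genes, 7 were lower by 1.5-fold or more, 0 higher by as much and 1 had a ratio above 1, with a median log2 ratio of -0.29. Ccne1, cyclin E1 of the entry into S phase, was at 41.8 CPM in the Atf3/Nectin4 cells, 81.2 CPM in the comparison cells and 139 CPM in DMSO cells, a ratio of 0.52 (0.46 to 0.57). Ccne2, its relative, had a ratio of 0.47 (0.34 to 0.63), and E2f8, a repressor of the E2F family, a ratio of 0.50 (0.38 to 0.63). Of 52 measured G2 and M phase genes, 41 had a ratio above 1 and 0 passed 1.5-fold in either direction, with a median log2 ratio of 0.11. The kinetochore motor gene Cenpe had the highest ratio, 1.27 (1.21 to 1.33). With the comparison cells weighted to the depths of the Atf3/Nectin4 cells, the median of the mitotic list was 0.03.

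At 4000 UMIs per cell, a median Atf3/Nectin4 cell held 13 S phase UMIs (quartiles 10 and 18), a comparison cell 17 (12 and 22) and a DMSO cell 20 (16 and 25). For the naive list without Dppa5a the medians were 4 UMIs (quartiles 2 and 7) in the Atf3/Nectin4 cells, 7 (4 and 11) in the comparison cells and 9 (6 and 12) in DMSO cells. The quartile ranges of the Atf3/Nectin4 cells and the comparison cells overlapped for both lists.

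**Figure D4:**
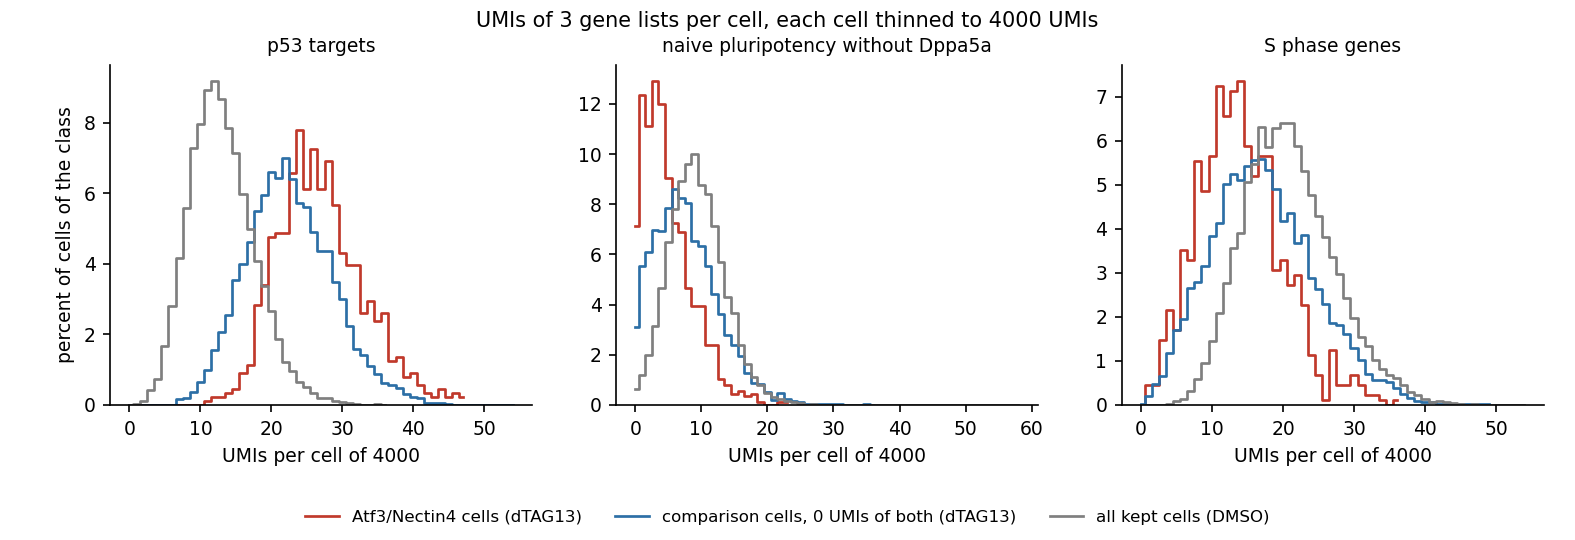
Percent of cells (vertical axis) by UMIs of 3 gene lists in 4000 UMIs per cell, for Atf3/Nectin4 cells, comparison cells and all kept DMSO cells. Median p53 target UMIs are 26, 22 and 13 in these 3 classes, and median naive UMIs without Dppa5a are 4, 7 and 9.

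The levels of the same genes are given by the number of Atf3 and Nectin4 UMIs in a cell as a description, since the rule used those counts and the genes were named for their ratio. Among low-keratin dTAG13 cells with 0, 1, 2, 3 and 4 or more UMIs of the pair, Npnt was at 6.55, 11.9, 16.0, 17.3 and 35.0 CPM. Cryab was at 17.7, 28.4, 45.5, 62.5 and 71.8 CPM in the same classes, and Dffb at 14.3, 22.4, 25.7, 37.1 and 62.6 CPM. The 1918 cells with 1 UMI lay between the comparison cells and the Atf3/Nectin4 cells for each of these genes.

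Other genes had a smaller span, and not all followed the order. Ddit3 was at 14.4, 20.97, 27.8, 22.4 and 37.3 CPM and Ddit4 at 59.2, 79.9, 105, 138 and 124 CPM in cells with 0, 1, 2, 3 and 4 or more UMIs. Mdm2 was at 328, 419, 468, 463 and 546 CPM, Perp at 161, 209, 285, 295 and 313 CPM and Jun at 59.8, 85.6, 100.4, 113 and 132 CPM in these classes. Zfp42 was at 469, 362, 296, 233 and 171 CPM, and Nanog at 81.6, 68.7, 57.0, 59.5 and 43.1 CPM. Trp53 was at 468, 458, 450, 447 and 410 CPM. Median depth was also higher along this order, at 6761.5, 7532.5, 7844, 8194.5 and 8575 UMIs per cell, as did Malat1, at 4265, 4811, 5296, 5602 and 5867 CPM. At 4000 UMIs per cell, the order for Zfp42 was 477, 369, 281, 214 and 183 CPM and for Perp 168, 224, 293, 318 and 343 CPM.

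**Figure D5:**
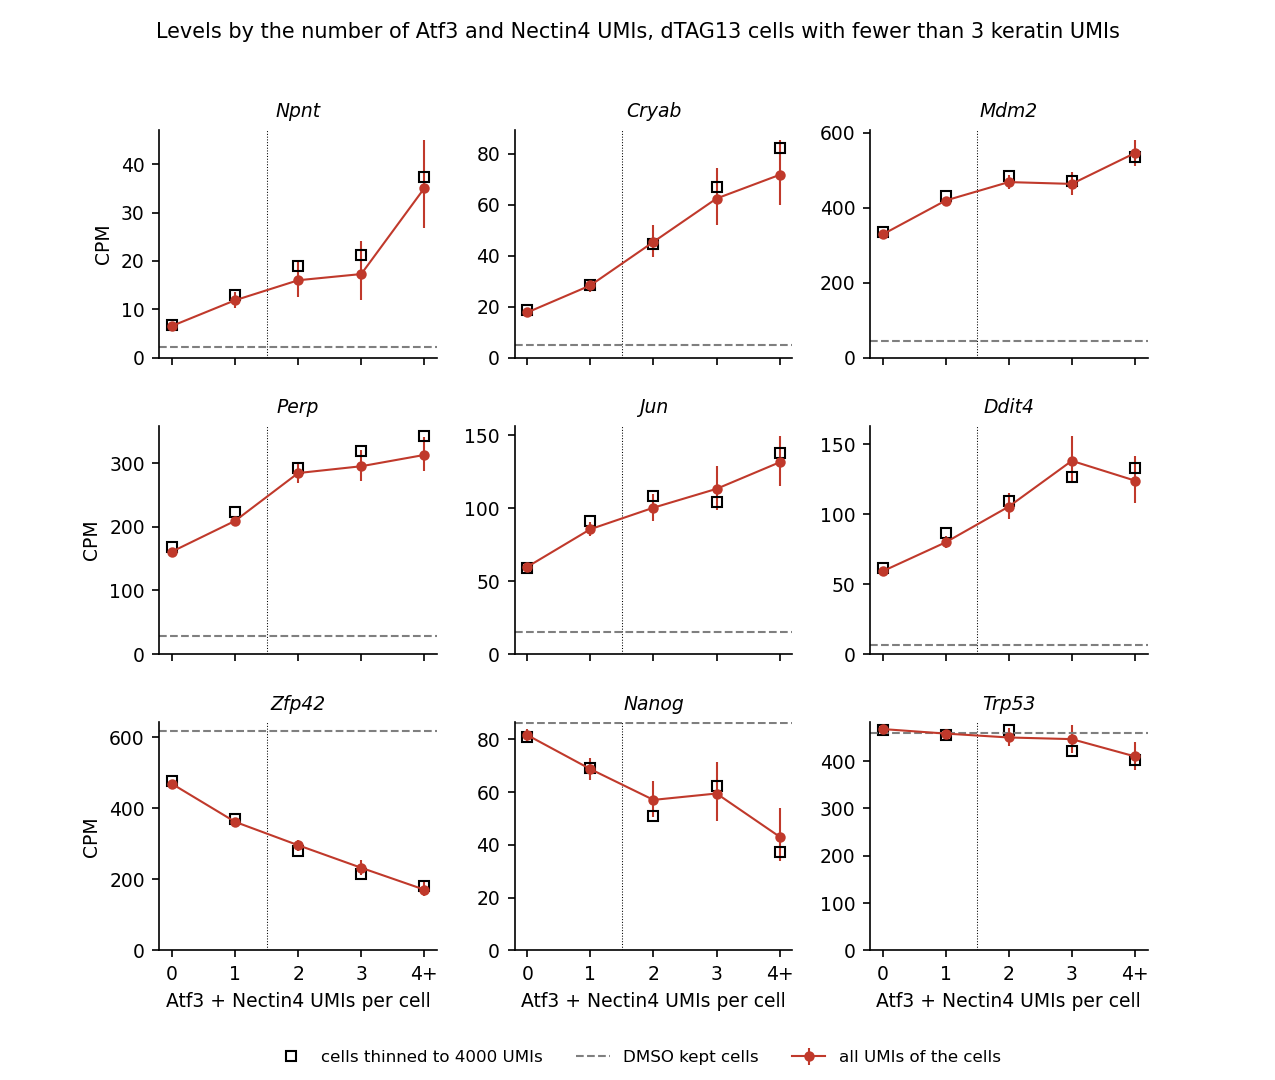
CPM of 9 genes (vertical axes, from 0) by Atf3 and Nectin4 UMIs per cell, low to high, in low-keratin dTAG13 cells, with 95% Poisson intervals; squares are cells thinned to 4000 UMIs, the dashed line is the DMSO level and the dotted line marks the threshold of 2 UMIs. Cryab spans 17.7 to 71.8 CPM and Zfp42 469 to 171 CPM.

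For Mdm2 and Zfp42, cells that met the rule by Atf3 alone and by Nectin4 alone lay on the same side of the comparison cells. Mdm2 was at 447 CPM in the 156 Atf3-only cells, 464 CPM in the 338 Nectin4-only cells and 329 CPM in the comparison cells. Zfp42 was at 274 CPM in the Atf3-only cells, 298 CPM in the Nectin4-only cells and 458 CPM in the comparison cells. Median log2 ratios over the comparison cells were 0.19 in Atf3-only and 0.29 in Nectin4-only cells for p53 targets, and -0.37 and -0.46 for naive genes. Medians of other lists differed in sign, with -0.30 and 0.02 for shared pluripotency and 0.31 and -0.21 for trophoblast. The trophoblast medians rest on 5 measured genes. Summed levels of both lists lay on the same side of the comparison cells. Shared pluripotency genes summed to 1811 CPM in the Atf3-only, 2074 CPM in the Nectin4-only and 2243 CPM in the comparison cells. Trophoblast markers, including the keratins the rule limited, summed to 218, 221 and 189 CPM in the same order. In the Nectin4-only cells, 6 of 11 shared pluripotency genes had a ratio above 1. The 424 cells with both genes were farther from the comparison cells for several genes, with Zfp42 at 219 CPM, Lefty2 at 16.6 CPM and Cebpb at 35.6 CPM. Lefty2 was at 33.3 CPM in the Atf3-only cells and 39.4 CPM in the Nectin4-only cells. Cebpb was at 18.6 CPM in the Atf3-only cells and 20.2 CPM in the Nectin4-only cells. Median depth was 8414.5 UMIs in the cells with both genes, 7560.5 in the Atf3-only cells and 7982 in the Nectin4-only cells. The part of depth and of the number of Atf3 and Nectin4 UMIs per cell in these differences was not tested.

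The widest differences between the Atf3-only and Nectin4-only cells, chosen after their values were seen among 2581 genes of at least 50 CPM in 1 or both, included those of Ccn2, Tagln, Gadd45b and Hormad1. Ccn2, a matricellular gene of the same family as Ccn1, was at 54.2 CPM (70 UMIs) in the Atf3-only cells, 19.2 CPM (58 UMIs) in the Nectin4-only cells and 29.7 CPM in the comparison cells, a ratio of 2.82 (1.96 to 4.07) of Atf3-only over Nectin4-only cells. Tagln was at 153 CPM in the Atf3-only cells and 88.8 CPM in the Nectin4-only cells, a ratio of 1.72 (1.42 to 2.07). The stress gene Gadd45b had a ratio of 1.76 (1.37 to 2.25). In the other direction, Hormad1, a meiotic chromosome axis gene, was at 49.6 CPM in the Atf3-only cells and 90.5 CPM in the Nectin4-only cells, a ratio of 0.55 (0.41 to 0.72).

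The keratin limit left out 233 dTAG13 cells that also had at least 2 UMIs of Atf3 and Nectin4. Several genes were at higher levels in these than in the Atf3/Nectin4 cells. Sct was at 201 CPM in the Atf3/Nectin4 cells and 560 CPM in the keratin-rich cells, Cebpb at 27.5 CPM and 72.8 CPM, and Cryab at 54.8 CPM and 121 CPM in the same order. Nanog was at 54.7 CPM in the Atf3/Nectin4 cells and 18.5 CPM in the keratin-rich cells, and Zfp42 at 256 CPM and 101 CPM. Other genes were lower in the keratin-rich cells, with Mdm2 at 483 CPM in the Atf3/Nectin4 cells and 443 CPM in the keratin-rich cells, and Man2b1 at 194 CPM and 150 CPM. The p53 target lists together summed to 6622 CPM in the Atf3/Nectin4 cells and 6796 CPM in the keratin-rich cells. Their median log2 ratios over the comparison cells were 0.27 and 0.34 in the same order. These medians were 0.37 and 1.24 for immediate-early genes and 0.18 and 0.64 for epithelial junctions. Among other lists, they were lower in the keratin-rich cells for p53 growth arrest (0.27 and 0.13). The same held for AP-1 and ATF genes (0.31 and 0.25). The summed levels of these lists were higher in the keratin-rich cells. They were 1243 CPM and 1306 CPM for growth arrest and 1057 CPM and 1363 CPM for AP-1 and ATF genes, in the same order. The keratin-rich cells were deeper, at a median of 11605 UMIs.

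The rule was rarely met without dTAG13. Of 17878 kept DMSO cells, 20 met it, a share of 0.112% (0.0683 to 0.173), against 7.92% of dTAG13 cells. Of the 20, 10 held Atf3 alone, 5 Nectin4 alone and 5 both, whereas in dTAG13 the Nectin4-only cells outnumbered the Atf3-only cells. One of the 20 had 19 Atf3 UMIs in 2309 UMIs, and none of the others had more than 3 UMIs of the pair. Summed over the 20 cells, Mdm2 was at 202 CPM (30 UMIs, 136 to 288), against 44.1 CPM in DMSO cells with 0 UMIs of Atf3 and Nectin4, a ratio of 4.57 (3.08 to 6.54). Without the cell with most Atf3 the ratio was 3.87 (2.50 to 5.72). Ddit3, with 9 UMIs, was at 60.5 CPM (27.7 to 115) in the 20 cells and 3.53 CPM in the DMSO cells with 0 UMIs of the pair. Btg2 was at 80.6 CPM (12 UMIs, 41.7 to 141) and 14.5 CPM in the same order, a ratio of 5.56. Of these Btg2 UMIs, 5 came from the cell with most Atf3, and without it the ratio was 3.30 (1.32 to 6.81). Jun was at 60.5 CPM (9 UMIs) in the 20 cells and 14.4 CPM in the DMSO cells with 0 UMIs of the pair. Sct had 1 UMI in the 20 cells. Zfp42 was at 443 CPM (343 to 564) in the 20 cells and 623 CPM in the DMSO cells with 0 UMIs of the pair, and Trp53 at 437 CPM and 460 CPM.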

How the data were processed

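Single-cell libraries of 1 dTAG13 and 1 DMSO embryoid body sample were used. Per the file headers, Cell Ranger 8.0.1 produced the deposited values, which are raw UMI counts by gene and barcode. Seurat 5.0.1, R 4.3.2 and mm10 are named in the submitters' processing notes without a role. How barcodes were filtered and which annotation was counted are not given in the sources used here. No doublets were removed.

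Barcodes with 500 or more genes and no more than 10% of UMIs from mitochondrial genes were kept (11588 of 11644 dTAG13 and 17878 of 17958 DMSO barcodes), and UMIs were summed per class as CPM. Counts of the 26 symbols with 2 identifiers were summed. CPM has exact Poisson, ratios exact conditional binomial and shares exact (Clopper-Pearson) binomial intervals at 95% (Python 3.11.15, scipy 1.17.1). With all cells in 1 library there is no test. A gene was measured at 10 CPM in 1 or both classes and counted at 1.5-fold, and the calculation was tested on simulated data. The members, lists and settings were chosen with earlier results of these data known.

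The naming rule took, among genes with at least 20 CPM and a UMI in at least 5% of cells of the higher class, without the 5 genes of the rule and without mitochondrial, ribosomal protein and predicted genes, the 20 highest and 20 lowest ratios. It also took up to 4 genes per list with the largest log2 ratios, and Tex10, Mdm2, Trp53, Pou5f1, Sox2, Nanog and Neurod1 always. Some of the genes it selects are not reported here. Genes described that it does not select, such as Malat1, Cdkn1a, Klf6, Epcam, Nodal and Neat1, were chosen after their values were seen. Depth, cell filters, level minimum, scaling, member threshold, keratin limit and single-gene rules were varied in 14 settings.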

Additional observations from a re-analysis of the deposited data

How the results depend on the processing

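Leaving out the deepest 5% of cells gave 830 member cells, requiring 3 UMIs of the pair 377 and requiring 0 keratin UMIs 661. Requiring 2 Atf3 UMIs, whatever the Nectin4 count, gave 313, and requiring 2 Nectin4 UMIs, whatever the Atf3 count, gave 490. These sets are not the 156 Atf3-only and 338 Nectin4-only cells described above. The numbers of genes at least 1.5-fold higher and lower, 268 and 134, became 449 and 276 with 3 UMIs of the pair and 428 and 285 with 2 Atf3 UMIs. They were 440 and 263 at a minimum of 5 CPM, 154 and 73 at 20 CPM, and 351 and 240 in thinned cells. With the comparison cells also limited to fewer than 3 keratin UMIs, they were 298 and 146. Of the 268 and 134 genes, 239 and 119 were also past the limit in thinned cells, 260 and 115 with comparison cells weighted to the members' depths, and 201 and 94 with 0 keratin UMIs. The settings that change the level minimum test other numbers of genes by construction; the cause of the other shifts was not tested. The naive pluripotency median of -0.54 was -0.74 with 3 UMIs of the pair, -0.69 with 2 Atf3 UMIs and -0.39 with 0 keratin UMIs. Over the 14 settings the median log2 ratio lay between 0.24 and 0.31 for the p53 lists, 0.22 and 0.44 for the immediate-early list, 0.03 and 0.07 for the integrated stress response, 0.03 and 0.19 for G2 and M phase genes and -0.35 and -0.24 for S phase genes, and none of these changed sign. Median-of-ratios scaling moved all log2 ratios by 0.02. Without the DMSO cell with most Atf3, an alternative chosen after seeing the data, the Mdm2 ratio in DMSO cells that met the rule was 3.87 in place of 4.57 and the Btg2 ratio 3.30 in place of 5.56. No paired analysis was possible because each group is 1 library. With 20 DMSO cells, genes of a few UMIs have wide intervals there.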

Other observations

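Other gene groups differed little between the Atf3/Nectin4 cells and the comparison cells. Of 32 ribosome biogenesis genes, 0 passed 1.5-fold and 4 had a ratio above 1, with a median log2 ratio of -0.14. The nucleolar gene Nolc1 was at 251 CPM in the Atf3/Nectin4 cells, 348 CPM in the comparison cells and 458 CPM in DMSO cells. Of 15 measured glycolysis and hypoxia genes, 1 was at least 1.5-fold lower, Pdk1, a kinase that holds back pyruvate oxidation, with a ratio of 0.49 (0.38 to 0.62), and 2 had a ratio above 1. Of 16 measured cholesterol synthesis genes, 0 passed 1.5-fold, and the median log2 ratio was -0.18. Of 17 measured lysosome and autophagy genes, 0 passed 1.5-fold, although the lysosomal enzyme gene Man2b1, which is not in that list, was among the highest ratios. The protease gene Ctsd had a ratio of 1.42 (1.32 to 1.52), and Gabarapl2, an autophagosome gene, a ratio of 0.68 (0.65 to 0.71).

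Nodal and FGF pathway genes were divided. Of 9 measured Nodal and BMP genes, 3 were at least 1.5-fold lower: Lefty2, Lefty1 and the Nodal coreceptor gene Tdgf1, the last at 215 CPM in the Atf3/Nectin4 cells, 370 CPM in the comparison cells and 350 CPM in DMSO cells. Nodal itself, outside the naming rule, was at 93.96 CPM in the Atf3/Nectin4 cells and 85.3 CPM in the comparison cells. Of 6 measured FGF and ERK response genes, Fosl1 and Phlda1 were at least 1.5-fold higher and Egr1 and Ccnd1 at least 1.5-fold lower. Phlda1, a pleckstrin-like gene of stress and growth factor responses, was at 58.4 CPM in the Atf3/Nectin4 cells, 30.9 CPM in the comparison cells and 5.75 CPM in DMSO cells. Of 10 measured imprinted genes, 0 passed 1.5-fold, and Peg3, a zinc finger gene, had the highest ratio, 1.43 (1.32 to 1.54). The nuclear RNA Neat1, outside the naming rule, was at 40.5 CPM in the Atf3/Nectin4 cells, 25.1 CPM in the comparison cells and 7.65 CPM in DMSO cells.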
